A study of Mus musculus with 9 samples.

Results

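Retina of rd10 mice was compared with retina of a mouse line that expresses green fluorescent protein (GFP), gene by gene, over the whole transcriptome. The 6 libraries were taken by their titles out of the 9 of the series, 3 per genotype, and the 3 wild type libraries served only to estimate the spread and as a second reference. Each library held polyadenylated RNA from 2 whole retinae, and the design text calls the replicates biological. The labels give the genotypes as rd10, GFP-expressing and wild type, and the condition of the retina as Degenerated for rd10 and Normal for the other groups. The ages given are postnatal day 61 for rd10 and day 48 for wild type. The labels also give day 42 for Gg13 retina, which was read as the GFP line because no other group lacked an age. Strain and sex are not in the labels, nor is the promoter that drives GFP. Age coincided with genotype throughout, so the effects of genotype and age cannot be told apart here.

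The rd10 strain carries a missense mutation in Pde6b, the gene of the beta subunit of the rod phosphodiesterase. This enzyme breaks down cyclic GMP when light activates the visual pigment, and thereby closes the channels of the rod outer segment. When it fails, rods die in the first weeks after birth, cones lose function and die later, and the inner retina is remodelled while Müller glia become reactive. Levels below are CPM, scaled shares of the counts of a library, with scaling factors from edgeR's TMM method. Fewer cells of a type and less RNA per cell cannot be told apart in such values.

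Libraries of both groups had 9597635 to 12149448 counts. Some stood apart in ways that their genotype labels do not name. Cryaa, the main crystallin gene of the lens, had 0.158, 2267 and 0.369 CPM in rd10 libraries 1, 2 and 3, and 2018, 10.4 and 0.858 CPM in GFP libraries 1, 2 and 3, so that rd10 2 and GFP 1 held lens RNA. Xist, the RNA of the inactive X chromosome, was high in rd10 1 alone among the 6 libraries. GFP 2 lay at 54.4 on the second principal component of these 6 libraries, which held 20.8% of the variance, while the other 5 lay between -44.3 and 17.4. In GFP 2 genes in the shortest of 4 transcript length classes stood 0.77 log2 units higher, relative to the longest class, than in the mean of the 9 libraries. GFP 3 differed from GFP 1 and GFP 2 in a segment of chromosome 17, described last. Whether GFP 3 comes from the same line as GFP 1 and GFP 2, as its label says, was not tested, and this bears on every value over 3 GFP libraries.

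In edgeR's quasi-likelihood fit, with p-values adjusted by Benjamini-Hochberg over 14300 genes, 2174 genes were higher in rd10 than in GFP retina (15.2% of the genes tested) and 2138 were lower (15%), together 30.2%. A change of at least 2-fold was found for 972 higher and 1029 lower genes, and one of at least 4-fold for 159 higher and 376 lower genes. For 48.2% of genes the 3 rd10 libraries all lay on one side of the 3 GFP libraries. The median log2 fold change over all genes was -0.02. The balance depended on scaling. With upper quartile scaling 2745 genes were higher and 1644 lower, so that 62.5% of calls were higher in place of 50.4%. With library totals alone the counts were 4041 and 1055, so that 79.3% of calls were higher, and the median of all genes moved to 0.31. Leaving out rd10 1, 2 or 3 gave 1297, 1416 and 1299 higher and 1305, 1367 and 1408 lower genes. Leaving out GFP 1, 2 or 3 gave 2170, 2175 and 1353 higher and 2097, 2078 and 1574 lower genes.

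**Figure D1:**
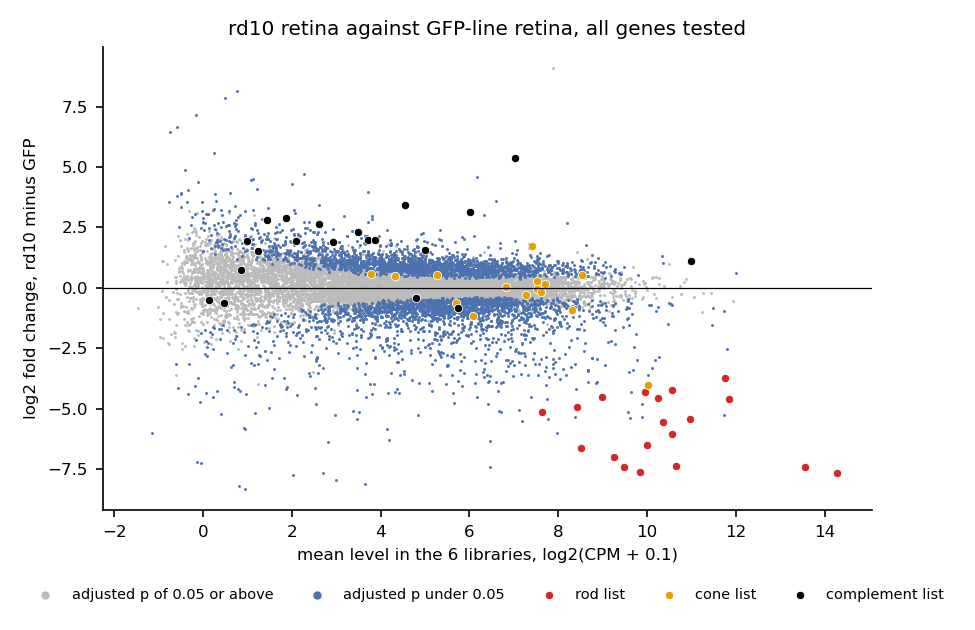
Log2 fold change of rd10 minus GFP (vertical) against the mean level over the 6 libraries in log2(CPM + 0.1) (horizontal) for the 14300 genes tested; blue points had an adjusted p under 0.05, grey points did not, and members of the rod, cone and complement lists are drawn larger. The 19 rod genes lie at -3.75 or below, most cone genes lie near 0, and complement genes reach 5.35.

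Rod transcripts were nearly lost. All 19 genes of the rod list fell, by a median log2 fold change of -5.55 against -0.02 over all genes, and the list's summed level was 100675, 105266 and 112752 CPM in GFP libraries 1, 2 and 3 and 1370, 1817 and 2201 CPM in rd10 libraries 1, 2 and 3. Pde6b itself had 3071, 3378 and 3197 CPM in the GFP libraries and 6.01, 22.5 and 30.1 CPM in the rd10 libraries. The groups did not overlap, and rd10 1 was the lowest library. The log2 fold change was -7.36 ± 0.54 (SE, n = 3 libraries per group), a 164-fold lower level (edgeR adjusted p = 4.8e-06). A count per gene does not read the rd10 base change, so it does not check the genotype. Gnat1, the alpha subunit of rod transducin, had 22918, 23066 and 26055 CPM in GFP and 40.1, 156 and 224 CPM in rd10, again lowest in rd10 1, and was 172-fold lower. Cnga1, the channel that cyclic GMP opens, had 952, 2105 and 1219 CPM in GFP and 3.4, 12.6 and 9 CPM in rd10. It was 171-fold lower. The subunit genes Pde6g and Gngt1 kept more. Pde6g, the inhibitory subunit, was 42.7-fold lower with 80.8, 88.2 and 108 CPM in the rd10 libraries, and Gngt1, the gamma subunit of transducin, was 23.4-fold lower with 106, 109 and 81.1 CPM. The rd10 libraries lay closer together for these 2 genes than for Gnat1, and rd10 3 was lowest for Gngt1.

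The rod genes fell together, so the 250 bases before the start of the 4 that fell most and have an entry in the RefSeq promoter table (GRCm38.p6) were searched for 2 short motifs on both strands. TAATCC is bound by the photoreceptor factor CRX, and TGCTGA is the half-site of MAF-type factors such as NRL. Matches are in capitals, and each line runs 5′ to 3′ on the strand of the gene.
Nrl, chr14:55524253-55524502, minus strand: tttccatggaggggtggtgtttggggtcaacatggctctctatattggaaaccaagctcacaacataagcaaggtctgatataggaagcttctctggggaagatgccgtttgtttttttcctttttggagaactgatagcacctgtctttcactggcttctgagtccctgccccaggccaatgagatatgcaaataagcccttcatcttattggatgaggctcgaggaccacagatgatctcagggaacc
Cnga1, chr5:72642753-72643002, minus strand: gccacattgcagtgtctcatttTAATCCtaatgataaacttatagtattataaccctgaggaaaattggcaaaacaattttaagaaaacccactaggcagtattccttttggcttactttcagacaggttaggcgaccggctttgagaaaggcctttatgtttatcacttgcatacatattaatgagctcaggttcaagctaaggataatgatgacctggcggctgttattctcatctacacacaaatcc
Pde6b, chr5:108388123-108388372, plus strand: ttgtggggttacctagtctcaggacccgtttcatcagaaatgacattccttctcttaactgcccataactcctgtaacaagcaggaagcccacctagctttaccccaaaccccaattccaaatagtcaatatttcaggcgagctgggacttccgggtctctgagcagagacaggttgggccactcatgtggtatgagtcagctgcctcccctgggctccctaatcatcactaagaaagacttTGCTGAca
Nr2e3, chr9:59950080-59950329, minus strand: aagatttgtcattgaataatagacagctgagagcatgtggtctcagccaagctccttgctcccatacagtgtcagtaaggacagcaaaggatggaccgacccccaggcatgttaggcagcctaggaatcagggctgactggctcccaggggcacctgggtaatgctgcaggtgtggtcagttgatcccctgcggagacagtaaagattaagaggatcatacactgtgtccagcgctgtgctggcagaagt
TAATCC stood in the Cnga1 window, starting 228 bases before the start, and TGCTGA in the Pde6b window, starting 8 bases before it. The windows of Nrl and Nr2e3 held neither set of letters. Over the 12 rod genes with an entry, 4 windows held TAATCC (33.3%) against 5.06% of the 10129 tested genes with an entry. TGCTGA stood in 2 of the 12 (16.7%) against 12.7%. TAATCC also stood in 5 of 28 windows of tested interferon genes (17.9%), among them that of Ifit3. These are matches of letters, and binding was not measured.

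The transcription factors that set rod identity were lower too. Of 15 photoreceptor transcription factors, 12 fell and 0 rose (median -1.69). Nrl, which directs precursors to the rod fate, had 1606, 2230 and 1607 CPM in GFP and 2.61, 12.5 and 12.2 CPM in rd10, a 199-fold lower level. Nr2e3, which represses cone genes in rods, had 662, 846 and 644 CPM in GFP and 2.37, 8.85 and 10.6 CPM in rd10. It was 98.6-fold lower, and for both genes rd10 1 was lowest and the groups were far apart. Crx, used by rods and cones and in part by bipolar cells, fell less: 1436, 1328 and 1504 CPM in GFP against 229, 271 and 273 CPM in rd10, or 5.52-fold. Mef2c and Samd7 were 13-fold and 19.1-fold lower.

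Genes of the recovery from light were lower as well. Of 15 genes of photoresponse shutoff, 12 fell, 1 rose and 2 did not pass, with a median of -4.03. Sag, the rod arrestin, had 5592, 8888 and 6837 CPM in GFP and 226, 287 and 356 CPM in rd10, a 24.5-fold lower level. Its cone counterpart Arr3 had 172, 237 and 176 CPM in GFP and 199.7, 237 and 217 CPM in rd10 and did not pass (adjusted p = 0.71). Guca1b, a calcium sensor of guanylate cyclase, was 128-fold lower. Slc24a1, the rod sodium, calcium and potassium exchanger, was 90.02-fold lower. Rgs9bp, the anchor of the protein that switches transducin off, was 14.7-fold lower.

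Structural genes of the photoreceptor were lower from the disc to the synapse. Of 18 outer segment genes, 16 fell and 2 did not pass, with a median of -3.28. Fscn2, an actin-bundling fascin, had 139, 223 and 166 CPM in GFP and 1.26, 0.966 and 0.885 CPM in rd10, and Prph2, which shapes the disc rim, had 5914, 7072 and 6826 CPM in GFP and 165, 182 and 174 CPM in rd10. The rd10 libraries lay close together for both, at a 168-fold and a 38-fold lower level. Rom1, the partner of Prph2, was 18.5-fold lower, Tulp1 10.1-fold, Cdhr1 7.85-fold, and Rbp3, which carries retinoids between photoreceptors and pigment epithelium, 5.71-fold. Of 34 genes of the photoreceptor cilium, 20 fell and 1 rose, with a median of -0.92. Mak, a ciliary kinase, was 8.27-fold lower, and the BBSome subunits Bbs7, Bbs9 and Bbs2 were 7.15-fold, 6.75-fold and 3-fold lower. The ribbon synapse list had 13 lower and 0 higher genes among 20 (median -1.03). Cabp4, the calcium channel regulator of photoreceptor terminals, was 23.9-fold lower, the complexin gene Cplx4 9.79-fold, Egflam, which encodes pikachurin, 8.99-fold, and the channel subunit gene Cacna1f 2.58-fold.

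Retinoid and lipid genes moved in both directions. Of 15 visual cycle genes, 5 fell, 3 rose and 7 did not pass. Among those that fell, Rdh12 was 40.5-fold lower, Rdh8 15.9-fold and Abca4 12-fold. Rlbp1, the retinaldehyde binding protein of Müller glia and pigment epithelium, had 424, 520.2 and 503 CPM in GFP and 843, 710.4 and 739.7 CPM in rd10, with no overlap, and rose 1.58-fold (adjusted p = 0.012, and 0.121 without the 4 libraries over 100 CPM of Cryaa). Of 19 genes of photoreceptor lipid synthesis, 8 fell, 6 rose and 5 did not pass. Elovl4, which makes very long fatty acids, was 7.52-fold lower, Agpat3 10.7-fold and Adipor1 7.55-fold, while the desaturase gene Scd1 was 2.88-fold higher.

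Cone transcripts did not follow the rods as a group. Of 15 genes on the cone list, 3 were higher, 4 lower and 8 did not pass, with a median of 0.02. Gnat2, the alpha subunit of cone transducin, had 198, 213 and 213 CPM in GFP and 199, 173 and 178 CPM in rd10, with overlapping groups, and a log2 fold change of -0.19 ± 0.17 (adjusted p = 0.42). Pde6h, the cone inhibitory subunit, had 76.5, 168 and 90.5 CPM in GFP and 126, 119 and 95.1 CPM in rd10, also overlapping, with a log2 fold change of 0.02 ± 0.28. Gngt2, the cone gamma subunit, had 121, 268 and 123 CPM in GFP and 146, 134 and 135 CPM in rd10. The spread of Gngt2 and Pde6h in GFP came from GFP 2, and neither passed. Their rod counterparts Gnat1, Pde6g and Gngt1 were 172-fold, 42.7-fold and 23.4-fold lower.

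Single cone genes did change. The summed level of the list was 3240, 5190 and 3600 CPM in GFP and 2234, 2276 and 2211 CPM in rd10, lower without overlap. Guca1a, which rods also use, held the largest change of the list, with 1446, 2761 and 1666 CPM in GFP and 121, 119 and 118 CPM in rd10, 16.4-fold lower. Its groups were far apart, and it took the largest share of the counts of the list in GFP. With Guca1a taken out of the summed level, the groups overlapped. Opn1sw, the short-wavelength opsin, had 379.9, 416 and 451 CPM in GFP and 224, 227 and 211 CPM in rd10, without overlap, and was 1.88-fold lower (adjusted p = 0.0016). Opn1mw, the middle-wavelength opsin, had 141, 252 and 163 CPM in GFP and 196, 179.8 and 167 CPM in rd10, with overlap, and did not pass (adjusted p = 0.92). Thrb, the thyroid hormone receptor that sets the middle-wavelength cone fate, had 94.2, 86.1 and 99 CPM in GFP and 39.9, 34.9 and 50.1 CPM in rd10 and was 2.23-fold lower. Pde6c, the catalytic subunit of the cone phosphodiesterase, went the other way. It had 82.4, 82.6 and 70.9 CPM in GFP and 239, 259 and 282 CPM in rd10, far apart, and was 3.31-fold higher (log2 fold change 1.72 ± 0.17, adjusted p = 3.9e-05). The wild type libraries had 141, 113 and 159.8 CPM of Pde6c, between the other groups. Against wild type the log2 fold change of rd10 was 0.92, and GFP against wild type was -0.81, which did not pass edgeR's test and passed DESeq2 (adjusted p = 0.049). Opn1sw and Gngt2 overlap another gene in the files' positions, and whether strand was used in counting is not given in the sources used here.

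**Figure D2:**
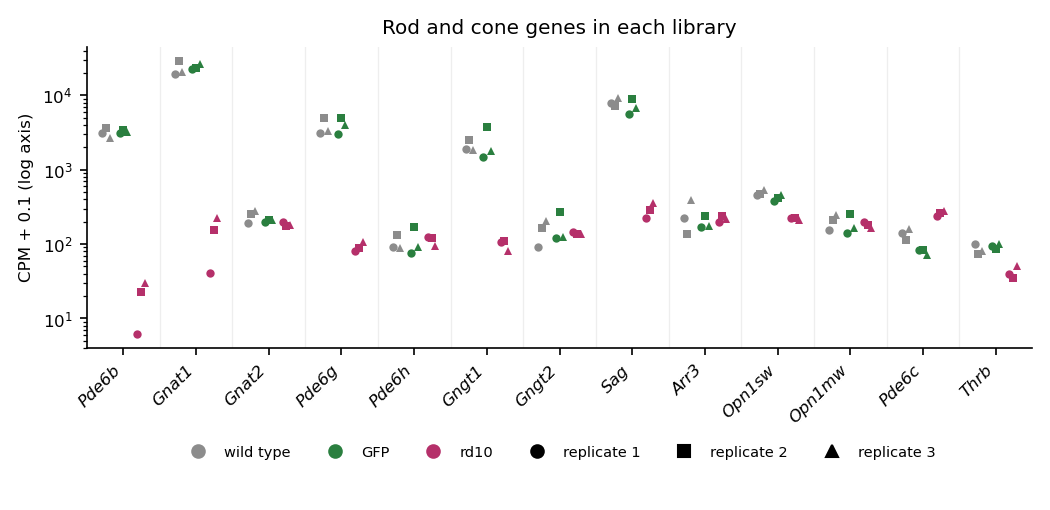
Level of 13 rod and cone genes in each of the 9 libraries, in CPM + 0.1 on a log axis; colours mark the groups and symbols the replicate numbers. The rd10 libraries lie far below both normal groups for Pde6b, Gnat1, Pde6g, Gngt1 and Sag, overlap the GFP libraries for Gnat2, Pde6h, Gngt2, Arr3 and Opn1mw, and lie above them for Pde6c.

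Transcripts of bipolar, horizontal, amacrine and ganglion cells were higher as shares of the RNA, by far less than rod genes were lower. Of 18 ON bipolar genes, 12 rose, 0 fell and 6 did not pass (median 0.55). Grm6, the glutamate receptor through which these cells read photoreceptor release, had 138, 92.8 and 113 CPM in GFP and 240, 235 and 323 CPM in rd10, without overlap, and was 2.32-fold higher (adjusted p = 0.0024). Trpm1, the channel it closes, was 2.12-fold higher, and its partner Gpr179 2.05-fold. Gng13, a G protein gamma subunit of the same cells, had 119, 266 and 149 CPM in GFP and 208, 201 and 215 CPM in rd10. The spread in GFP was wide, the groups overlapped, and Gng13 did not pass (log2 fold change 0.22, adjusted p = 0.58). Without GFP 2, its highest GFP library, it passed as higher (0.64, edgeR adjusted p = 0.0467), as it did with the length trend removed (0.64, adjusted p = 0.0101).

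The list of OFF and other bipolar genes had 7 higher and 2 lower among 15 tested (median 0.73). The kainate receptor gene Grik1 was 1.95-fold higher. Of 10 horizontal cell genes, 6 rose and 4 did not pass (median 0.84), among them the transcription factor gene Lhx1, 2.25-fold higher, and Tpm3, 2.18-fold. Of 25 amacrine genes, 15 rose and 10 did not pass (median 0.65). Slc17a8, a vesicular glutamate transporter, had 12.5, 11.5 and 11.1 CPM in GFP and 35.6, 32 and 29.95 CPM in rd10, a 2.78-fold higher level, and Gad2, which makes GABA, was 1.71-fold higher. Of 21 ganglion cell genes, 9 rose, 1 fell and 11 did not pass (median 0.52), with Rbpms and Slc17a6 2-fold and 1.87-fold higher.

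Receptor and channel genes of the inner retina moved in the same range. Of 18 ionotropic glutamate receptor genes, 11 rose and 7 did not pass (median 0.94), led by adjusted p by Gria1, an AMPA receptor subunit 1.94-fold higher, and Grik2, 2.49-fold higher. Of 8 metabotropic receptor genes, 4 rose, with Grm5 2.17-fold higher. Of 22 GABA and glycine receptor genes, 8 rose and 14 did not pass (median 0.83). The glycine receptor gene Glra2 was 2.05-fold higher. Of 23 acetylcholine, dopamine, serotonin and adenosine receptor genes, 10 rose and 1 fell. The one that fell was Drd4, a dopamine receptor of photoreceptors, with 165, 253 and 176 CPM in GFP and 8.77, 9.98 and 19.5 CPM in rd10, a 15.5-fold lower level. Of 37 potassium channel genes, 16 rose and 3 fell, and those that fell included Kcnj14, 64.7-fold, and Kcnv2, 30.6-fold. Of 35 sodium, calcium and HCN channel genes, 17 rose and 4 fell, with Scn3a 2.37-fold higher. Of 26 genes of conventional synaptic vesicles, 11 rose and 2 fell (median 0.51). Of 17 neuropeptide genes, 1 rose and 1 fell, the latter Vgf at 1.95-fold. The one that rose was Pdyn, the prodynorphin gene (log2 fold change 1.12, edgeR adjusted p = 0.049), whose call was lost in 15 of 22 alternatives, among them leaving out any one of the libraries other than GFP 3, with adjusted p of 0.0582 to 0.135.

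These neuronal lists were sensitive to the libraries used. With the libraries holding over 100 CPM of Cryaa left out, which leaves 2 per group compared, the genes that passed as higher fell from 12 to 4 in the ON bipolar, from 15 to 4 in the amacrine and from 9 to 4 in the ganglion list, while the medians were 0.51, 0.66 and 0.53. With scaling by library totals, the same lists had 13, 18 and 19 genes higher.

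Glial genes were higher. Of 24 Müller glia genes 18 rose and 0 fell (median 0.87), and their summed level was 8996, 9325 and 9689 CPM in GFP and 16228, 16262 and 16910 CPM in rd10. Aqp4, the water channel, had 97.9, 94.9 and 115 CPM in GFP and 298, 275 and 268 CPM in rd10, and Sox9, a transcription factor of these glia, had 23.2, 35.4 and 25.7 CPM in GFP and 72.6, 64.8 and 63.4 CPM in rd10. Both were without overlap, 2.73-fold and 2.38-fold higher. Dkk3 was 2.02-fold higher. Glul, the glutamine synthetase that clears glutamate, had 2930, 3054 and 3695 CPM in GFP and 5062, 4737 and 4981 CPM in rd10 and was 1.53-fold higher (adjusted p = 0.028). Its groups did not overlap, but its call was lost in 7 of 22 alternatives, among them leaving out rd10 1, 2 or 3 or GFP 1 (adjusted p of 0.0731, 0.0607, 0.0649 and 0.0586 by edgeR). Of 9 astrocyte genes 5 rose, with Aldh1l1 2.64-fold higher, and the number went down to 2 among the alternatives. Their summed level moved little, with 1087, 1168 and 1105 CPM in GFP and 1194, 1249 and 1296 CPM in rd10. The wild type libraries, at 1099, 1285 and 1235 CPM, overlapped both groups.

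Genes of reactive gliosis and the acute phase were among the largest rises of the whole comparison. Of 24 tested, 14 rose, 0 fell and 10 did not pass, and the median was 1.37. Gfap, a filament protein gene of reactive glia, had 22.9, 13.5 and 15.6 CPM in GFP and 107, 148 and 170.4 CPM in rd10. The lowest rd10 library stood above the highest GFP library by far, and the level was 8.15-fold higher (log2 fold change 3.03 ± 0.28, adjusted p = 2.9e-05). Serpina3n, a secreted protease inhibitor, had 6.8, 5.5 and 4.86 CPM in GFP and 98.1, 155 and 164 CPM in rd10, a 24.2-fold higher level. A2m, the gene of a broad protease inhibitor, had 16.7, 12.6 and 15.2 CPM in GFP and 137, 163 and 241 CPM in rd10 and was 12.1-fold higher. Both were lowest in rd10 1 within their group. Cd44, a receptor of matrix hyaluronan, was 5.21-fold higher. The receptor genes of the cytokines that drive this response did not move as one: Osmr, the oncostatin M receptor, had 10.7, 8.6 and 12 CPM in GFP and 45, 45.2 and 57.4 CPM in rd10 (4.7-fold higher), while Lifr, the receptor of leukaemia inhibitory factor, had 93.9, 89.3 and 104 CPM in GFP and 36.7, 30.6 and 35 CPM in rd10 (2.81-fold lower). Of 17 genes of this pathway 8 rose and 1 fell. Of 18 endothelin and FGF genes 8 rose and 1 fell. Ednrb, the endothelin receptor of Müller glia and astrocytes, was 2.62-fold higher and the feedback inhibitor Spry2 2.08-fold lower. Of 25 neurotrophin and GDNF genes 10 rose and 0 fell, among them the receptors Ngfr and Ntrk2, 1.91-fold and 2.2-fold higher.

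Complement transcripts were higher, with C4b first among called genes of at least 5 CPM without overlap. Of 20 tested, 15 rose, 1 fell and 4 did not pass, with a median of 1.94. C4b, a component of the classical and lectin pathways, had 6.71, 3.32 and 8.39 CPM in GFP and 194, 283 and 285 CPM in rd10. The groups were far apart, and the level was 40.9-fold higher (log2 fold change 5.35 ± 0.38, adjusted p = 3.9e-06). C4a, a near-identical copy, was listed at 0.79, 0.724 and 1.55 CPM in rd10, and how reads were split between the copies is not given in the sources used here. C3, where the pathways meet, had 5.53, 1.95 and 4.2 CPM in GFP and 34.9, 47.5 and 46.3 CPM in rd10 and was 10.9-fold higher. Serping1, which inhibits the first component, had 14.4, 11.1 and 13.7 CPM in GFP and 98.9, 134 and 118 CPM in rd10 and was 8.9-fold higher. C1qa and C1qc, subunits of the first component made by microglia, were 5.01-fold and 3.9-fold higher. Cd59a, which blocks the pore that complement forms, fell (-0.82 on the log2 scale) and was picked once its value was known.

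Microglia and macrophage genes rose too, from low levels. Of 28 tested, 20 rose, 0 fell and 8 did not pass, with a median of 1.75. Their summed level was 136, 191 and 152 CPM in GFP and 408, 449 and 402 CPM in rd10, without overlap. Csf1r, the receptor that keeps these cells alive, had 16, 13.6 and 18.3 CPM in GFP and 45, 46.9 and 55.1 CPM in rd10, 3.07-fold higher. The chemokine receptor gene Cx3cr1 was 3.95-fold higher, the lysosomal protease gene Ctss 3.45-fold, and Lyz2, the lysozyme of macrophages, 6.68-fold. Csf1, the ligand of Csf1r, had 5.8, 3.09 and 4.48 CPM in GFP and 16, 19.8 and 21.1 CPM in rd10, 4.23-fold higher. Of 18 tested cytokine and chemokine genes, 9 rose and 0 fell, and 16 more had too few counts to test, among them Il1b, Tnf and Ccl2. Of the lymphocyte and mast cell list, 13 of 17 genes had too few counts to test, Cd3e and Cpa3 among them.

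Antigen presentation genes were higher in both classes. Of 8 class II genes 5 rose (median 2.04), and of 16 class I genes 7 rose and 1 fell (median 0.95). Cd74, the chaperone of class II molecules, had 2, 1.26 and 1.43 CPM in GFP and 18.3, 31.4 and 23.8 CPM in rd10, and H2-Aa, a class II chain, had 0.453, 1.15 and 0.763 CPM in GFP and 4.98, 9.98 and 6.79 CPM in rd10. Both were without overlap, 15.5-fold and 9.24-fold higher. H2-K1 and the peptide transporter gene Tap2 were 3.09-fold and 2.42-fold higher.

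Genes of the interferon response were higher in rd10, and the values against both normal groups are given side by side. Of 34 tested, 22 rose, 2 fell and 10 did not pass, with a median of 1.66. Against wild type, which shares the rd10 libraries, 15 rose and 3 fell with a median of 1.04. Ifit3, an interferon-induced gene, had 2.72, 4.93 and 2.38 CPM in GFP, 25.6, 21 and 26 CPM in rd10 and 8.18, 9.53 and 28.7 CPM in wild type. The third wild type library stood above all rd10 libraries. Its log2 fold change was 2.87 ± 0.48 against GFP (adjusted p = 0.0019) and 0.65 against wild type (adjusted p = 0.28). Gbp6, a guanylate-binding protein, had 3.45, 4.01 and 2.86 CPM in GFP, 13.4, 14.7 and 17.5 CPM in rd10 and 5.25, 7.02 and 11.8 CPM in wild type, with log2 fold changes of 2.14 against GFP and 0.92 against wild type. Ddx58, which senses viral RNA, and Gbp2 were 3.45-fold and 5-fold higher than in GFP. The genes that fell were Irf3, a transcription factor that switches interferon genes on, with 62.3, 82.9 and 58.7 CPM in GFP and 24.7, 30.3 and 24.7 CPM in rd10, and Irf7, its inducible relative, picked once its value was known, with 18, 21 and 15.1 CPM in GFP and 6.16, 5.88 and 10.03 CPM in rd10. The difference between GFP and wild type did not pass for any gene of the list by edgeR, and Ifit3 passed by DESeq2 (log2 fold change -2.20, adjusted p = 0.036).

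Promoters of the 2 interferon genes with an entry and the largest rise at or above 5 CPM are shown to set the letters beside the values. This set was added after the values were seen. Capitals mark GAAANNGAAA on either strand, the core of the element that interferon-activated factors bind.
Ifit3, chr19:34583279-34583528, plus strand: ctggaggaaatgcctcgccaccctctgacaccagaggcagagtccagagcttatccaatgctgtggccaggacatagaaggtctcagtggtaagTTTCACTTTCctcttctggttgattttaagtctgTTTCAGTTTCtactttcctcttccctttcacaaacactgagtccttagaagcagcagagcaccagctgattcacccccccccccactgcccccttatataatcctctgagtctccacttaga
Ifit1, chr19:34640639-34640888, plus strand: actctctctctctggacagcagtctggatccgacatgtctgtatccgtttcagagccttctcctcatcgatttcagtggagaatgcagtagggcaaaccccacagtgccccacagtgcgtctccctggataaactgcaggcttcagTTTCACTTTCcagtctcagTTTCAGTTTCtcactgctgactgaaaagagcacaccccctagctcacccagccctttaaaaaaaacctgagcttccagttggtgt
The core stood 2 times in each window, starting 156 and 122 bases before the start of Ifit3 and 104 and 85 bases before that of Ifit1. Ifit1 had 0.998, 3.32 and 2.77 CPM in GFP and 11.9, 10.1 and 16.2 CPM in rd10, with a log2 fold change of 2.44 (adjusted p = 0.014). Of 28 tested interferon genes with an entry, 12 windows held the core (42.9%), against 2.41% of the 10129 tested genes with an entry. None of the 12 rod windows held it.

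**Figure D3:**
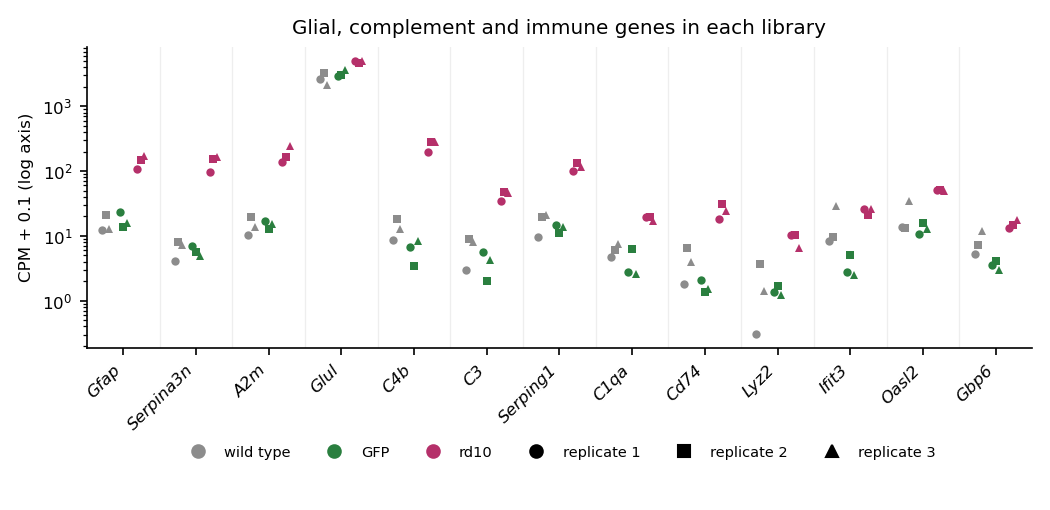
Level of 13 glial, complement and immune genes in each of the 9 libraries, in CPM + 0.1 on a log axis; colours mark the groups and symbols the replicate numbers. The rd10 libraries lie above the 3 GFP libraries for each gene, and for Ifit3 the third wild type library lies above the rd10 libraries.

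Without the 4 libraries over 100 CPM of Cryaa, 13 of the complement, 12 of the microglia, 13 of the interferon, 10 of the gliosis and 10 of the Müller genes passed as higher, with medians of 1.66, 1.64, 1.62, 1.50 and 0.77. No gene of the lens list passed in the comparison.

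Vessel and pigment genes gave a mixed picture. Of 20 endothelial and pericyte genes 1 rose, 0 fell, and the median was -0.16. The one that rose was Kdr, a receptor of vascular endothelial growth factor, with 234, 90.2 and 213 CPM in GFP and 615, 495 and 711 CPM in rd10, 3.38-fold higher (adjusted p = 0.0048). Pecam1 and Cdh5, which mark endothelium, had 9.8, 8.25 and 9.82 CPM and 11.5, 5.04 and 11.4 CPM in GFP and 7.03, 7.16 and 9.15 CPM and 3.16, 7.65 and 6.2 CPM in rd10, and did not pass. Of 16 genes of pigment epithelium and melanin, 8 rose and 8 did not pass (median 0.89). Those that rose included Trpm1, also on the ON bipolar list, and Rlbp1, also on the Müller glia and visual cycle lists. Dct, a melanin enzyme, had 22.6, 24.6 and 27 CPM in GFP and 78.4, 59 and 65.2 CPM in rd10, 2.73-fold higher, and Tyrp1 was 2.88-fold higher. How much pigment epithelium stayed with each dissected retina was not tested. Of 8 tested genes of cornea, iris, ciliary body and muscle, 2 rose and 1 fell (median 0.67). The one that fell was Aqp1, a water channel, with 144, 109.7 and 157 CPM in GFP and 2.53, 11.2 and 4.35 CPM in rd10. It was 22.7-fold lower. Aqp5 and Aldh1a1 rose, by 1.91 and 1.19 on the log2 scale. Each of these 2 calls was lost in 2 of 22 alternatives.

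Energy metabolism was lower in part. Of 32 genes of glycolysis and lactate, 10 fell, 4 rose and 18 did not pass, with a median of -0.21 that turned to 0.12 with library totals. Hk2, the hexokinase concentrated in photoreceptors, had 409, 341 and 359 CPM in GFP and 41.1, 51.8 and 59.3 CPM in rd10, 7.29-fold lower. Pfkfb2, which tunes phosphofructokinase, was 10.2-fold lower, Ldha, the lactate dehydrogenase, 3.76-fold, and the lactate transporter gene Slc16a1 3.24-fold. Of 25 citric acid cycle genes 4 fell and 3 rose, near the 15% and 15.2% of all genes. Their median of -0.20 turned to 0.12 with library totals. The malic enzyme genes Me1 and Me2 were 2.46-fold and 2.42-fold lower. Of 25 genes of creatine, adenylate and ion pumps 7 rose and 1 fell. Ckmt1, the mitochondrial creatine kinase, was 2.6-fold lower.

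Genes of the respiratory chain and of ribosomal proteins were lower where they passed. Of 51 genes of the respiratory chain 11 fell and 0 rose (median -0.59), with Ndufa4 2.25-fold lower at 196, 200.1 and 141 CPM in rd10 against 269, 556 and 384 CPM in GFP. Of 48 ribosomal protein genes 10 fell and 0 rose (median -0.63), with Rpl8 1.97-fold lower. Over all genes 15% were lower and 15.2% higher. With library totals 3 and 1 genes of these lists were lower, beside 1055 of the 14300 genes tested. Transcript length moved with the comparison over all genes: in the shortest of the 4 classes 6.81% of genes were higher and 16.8% lower, and in the longest 20.8% and 11.4%. The medians were -0.22 and 0.17. After the trend with length was removed the medians of the 2 lists were -0.32 and -0.38, with 14 and 18 genes lower. Without GFP 2 the medians were -0.27 and -0.30, with 5 and 3 genes lower, beside 2078 of the 14526 genes then tested. Without the 4 libraries over 100 CPM of Cryaa 5 and 7 genes of the lists were lower. The part of transcript length in these counts was not tested.

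Genes of stress and cell death moved in both directions. Of 34 genes of the unfolded protein response and heat shock 13 fell, 1 rose and 20 did not pass (median -0.39). Hspa1a and Hspa1b, near-identical inducible chaperone genes, had 43.8, 50.9 and 51.5 CPM and 32.7, 46.1 and 37.2 CPM in GFP and 3.95, 2.58 and 3.84 CPM and 1.82, 2.09 and 2.51 CPM in rd10. The groups were far apart at 14-fold and 17.9-fold lower levels, though the split of reads between these copies is uncertain. Atf4, a transcription factor of the integrated stress response, was 2.25-fold lower and Pdia4, an enzyme of protein folding, 2.16-fold. Of 39 cell death genes, 6 rose, against 15.2% of all genes, and 2 fell. Tnfrsf1a, a receptor of tumour necrosis factor, had 7.62, 6.3 and 8.68 CPM in GFP and 27.3, 32.9 and 27.8 CPM in rd10, 3.89-fold higher, and Tnfrsf1b was 6.38-fold higher. Casp1, the protease that releases interleukin 1, had 1 count in GFP and 82 in rd10, a ratio of 80.4 per total count (exact 95% interval 14.0 to 3212, counting error only). Casp12 had 0 counts in GFP and 100 in rd10, at least 11.0-fold higher against a floor of 3 counts per library. Of 36 antioxidant genes 4 rose and 3 fell, both shares below the 15.2% and 15% of all genes, and with library totals 18 were higher and 3 lower. Nxnl1, which encodes a thioredoxin-like factor of rods, had 314, 601 and 363 CPM in GFP and 9.4, 11.7 and 8.71 CPM in rd10, 42.9-fold lower, and Gpx3, a secreted peroxidase, had 74.4, 90.3 and 71.3 CPM in GFP and 385, 718 and 416 CPM in rd10, 6.44-fold higher.

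Counts of clearance genes depended on scaling. Of 19 phagocytosis receptor genes 6 rose and 3 fell. Axl and Megf10, receptors for dying cells, were 2.34-fold and 2.4-fold higher, and Scarb1, a lipoprotein receptor, 2.68-fold lower. Of 38 lysosome genes 11 rose and 6 fell, with the cathepsin gene Ctsh 2.08-fold higher. Of 32 cholesterol genes 5 rose and 2 fell, Abcg1, an exporter, being 2.09-fold lower. Over all genes 15.2% were higher and 15% lower, so the cholesterol list was near the background for higher genes. With library totals the higher and lower counts were 12 and 1 for phagocytosis, 20 and 0 for the lysosome and 13 and 1 for cholesterol.

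Matrix, adhesion and guidance genes made up some of the largest counts of higher genes. Of 57 matrix genes 24 rose and 0 fell (median 0.93). Vcan, a large proteoglycan, had 14.9, 6.76 and 11.6 CPM in GFP and 39.3, 48.5 and 47.8 CPM in rd10, 4.06-fold higher, Col1a2, a chain of type I collagen, was 3.45-fold higher, and Timp3, an inhibitor of matrix proteases, 2.51-fold. Of 60 axon guidance genes 35 rose and 1 fell (median 0.89). Sema3e and Sema4a were 2.1-fold and 2.14-fold higher, and the one that fell was Sema3f, 2.42-fold, with 240.2, 145 and 219 CPM in GFP and 73.2, 79.3 and 97.8 CPM in rd10. Of 30 cadherin genes 17 rose and 2 fell, with Cdh11 2.36-fold higher. The calls of these 3 lists went to 16, 28 and 11 higher without the 4 libraries over 100 CPM of Cryaa, and to 37, 44 and 23 with library totals.

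Signalling lists held single genes of large change. Of 39 Notch and Wnt genes 11 rose and 3 fell. Jag1, a Notch ligand, had 146, 108 and 152 CPM in GFP and 14.9, 14.3 and 22.1 CPM in rd10, 7.9-fold lower, and Tcf7l1 was 2.58-fold higher. Of 34 TGF beta and BMP genes 11 rose and 1 fell, with the ligand gene Tgfb2 1.92-fold higher. Of 29 cell cycle genes 6 fell and 2 rose, beside 15% and 15.2% of all genes. Another 9 genes, such as Mki67 and Top2a, had too few counts to test. Ccna2, a cyclin, had 36.2, 45.7 and 28.5 CPM in GFP and 3.4, 6.52 and 3.25 CPM in rd10, 8.38-fold lower, and Ccnd2 was 3.65-fold higher. Of 22 clock genes 4 rose and 3 fell, near the 15.2% and 15% of all genes. Arntl was 2.19-fold lower and Hlf 1.89-fold higher, and the hour of collection is not in the labels. Of 23 immediate early genes 2 rose and 2 fell, both shares below the 15.2% and 15% of all genes. Ier3 was 2.79-fold lower and Atf3 changed by -1.70 on the log2 scale. Egr1 and Ier5 rose by 1.96 and 0.77. The calls of Atf3, Egr1 and Ier5 were lost in 4, 3 and 7 of 22 alternatives. Of 42 splicing factor genes 6 rose and 7 fell, Rbfox2 being 2.04-fold higher. These shares are near the 15.2% and 15% of all genes, and the counts were 12 and 1 with library totals and 1 and 0 without the 4 libraries over 100 CPM of Cryaa. The last 4 lists had medians of -0.13, 0.30, -0.11 and -0.16, and with library totals all 4 medians were above 0.

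**Figure D4:**
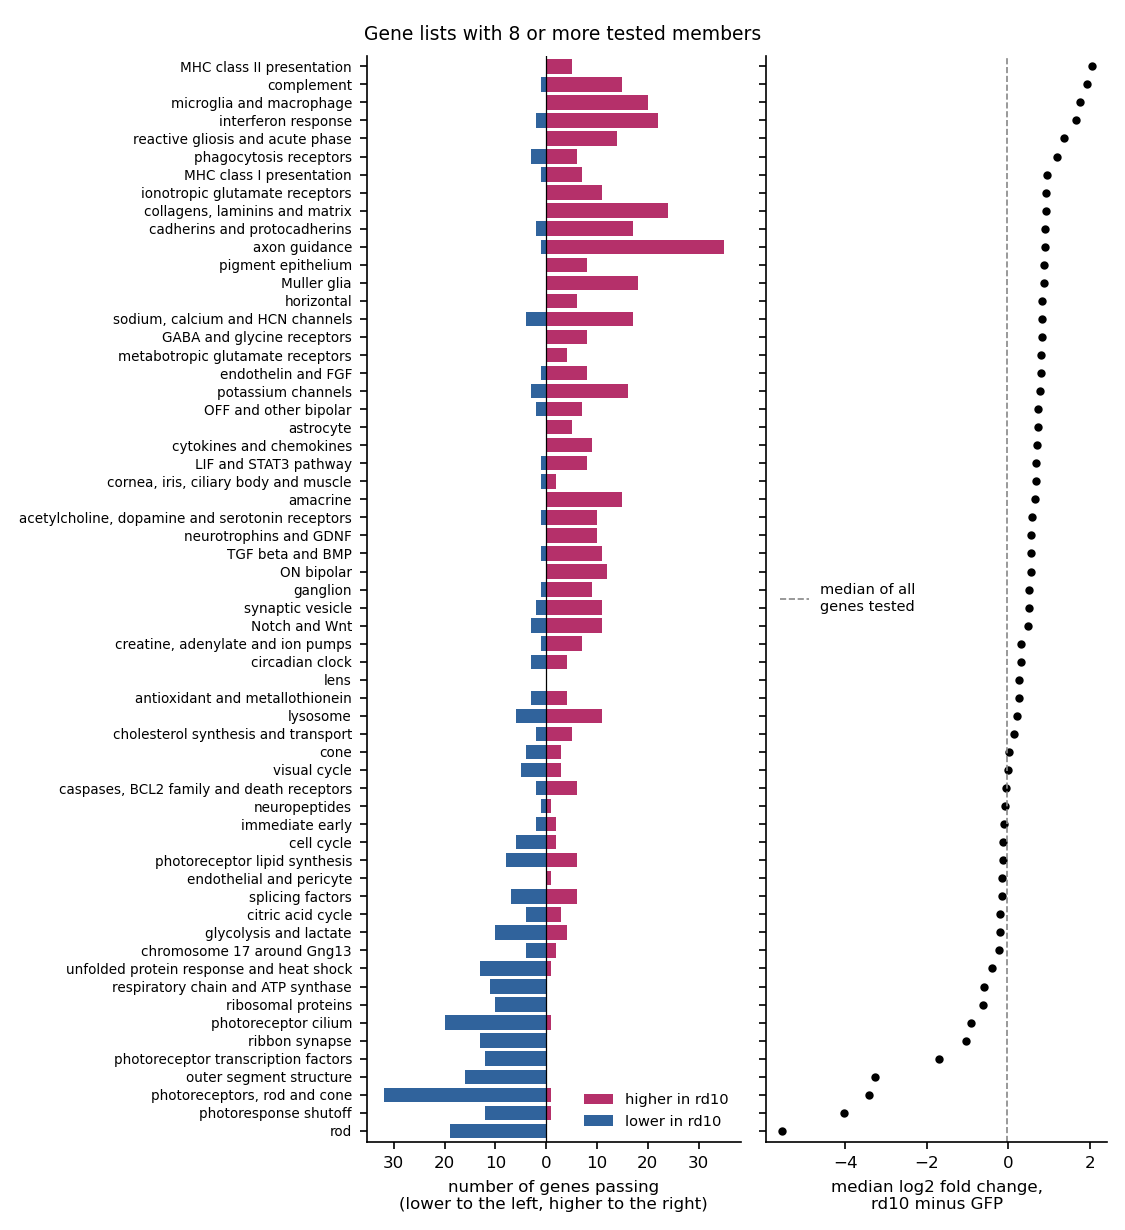
Gene lists with 8 or more tested members, ordered by median; the left panel gives the number of genes that passed as lower (to the left) and higher (to the right) in rd10, and the right panel the median log2 fold change of rd10 minus GFP, with the median of all 14300 genes as a dashed line. Rod genes have the lowest median (-5.55) and class II presentation genes the highest (2.04).

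The extremes of the comparison also held genes outside these lists. Among called genes that averaged 5 CPM or more and whose groups were separate, the 12 highest were C4b, Serpina3n, Cd74, A2m, Cyp26a1, C3, Serping1, Gfap, Gna14, Flnc, Ifit3 and Lyz2. Cyp26a1, which breaks down retinoic acid, had 0.816, 0.344 and 1.81 CPM in GFP and 14.7, 10.8 and 7.75 CPM in rd10, 10.9-fold higher. Gna14, a G protein alpha subunit, had 3.81, 2.06 and 3.43 CPM in GFP and 22.6, 28.7 and 22.7 CPM in rd10, 7.88-fold higher, and Flnc, an actin crosslinker, was 7.86-fold higher. The 12 lowest included Nrl, Gnat1, Cnga1, Fscn2, Pde6b, Guca1b, Nr2e3 and Slc24a1, and 3 genes with almost no counts in rd10. Hdc, the histidine decarboxylase that makes histamine, had 23.5, 25 and 25.8 CPM in GFP and 3 counts in all rd10 libraries, a ratio of counts per total of 254 (exact 95% interval 86.7 to 1237). Nipal1 and Sh2d1a had 2 counts each in rd10 and ratios of 238 (65.6 to 1973) and 189 (51.9 to 1565).

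With the rd10 libraries shared, the comparison with wild type called 28.4% of genes, 2067 higher and 1988 lower. GFP against wild type called 0 of 14300 genes (0%) by edgeR, with 214 genes at an unadjusted p under 0.05, and DESeq2 called 2, Ifit3 and Pde6c, both lower in GFP. For the extremes the values stood side by side as follows. C4b had a log2 fold change of 5.35 against GFP and 4.26 against wild type, where it had 8.48, 18.4 and 12.7 CPM. Cd74 had 3.95 and 2.61, Serpina3n 4.60 and 4.45, Gfap 3.03 and 3.21, Nrl -7.64 and -7.50, and Pde6b -7.36 and -7.33.

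A segment of chromosome 17 around Gng13 set GFP libraries 1 and 2 apart from GFP 3, and with it from rd10. Gng13 lies at 25854117 to 25856047 on mm9, the build of the files. Lmf1 (25716119 to 25799668), a maturation factor of lipases on one side of it, had 78.2, 111 and 10.5 CPM in GFP 1, 2 and 3, 11.1, 14.3 and 14.5 CPM in rd10 and 7.88, 15.2 and 15.8 CPM in wild type. Narfl (25910721 to 25920277), an iron-sulphur protein gene on the other side, had 105, 96.5 and 27.9 CPM in GFP, 21.4, 24.7 and 20.2 CPM in rd10 and 32, 31.9 and 25.7 CPM in wild type. Metrn, a gene named after its values were seen, had 74.2, 111 and 27.3 CPM in GFP and 57.5, 51.1 and 52.8 CPM in rd10. In each case GFP 1 and GFP 2 were high and GFP 3 lay near the wild type libraries. The pattern also held for Rpusd1, with 87.4, 94.6 and 24.7 CPM in GFP, Haghl, with 66.2, 62.2 and 16.7 CPM, and Fam173a, with 38.5, 89.97 and 17.7 CPM. Between and beside them, Wdr24 (24.7, 28.4 and 25 CPM in GFP), Stub1 (36.7, 37.9 and 38.5 CPM) and Pigq (93.4, 73.5 and 90.4 CPM) did not show it.

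Of the 20 tested genes of this segment, 2 were higher and 4 lower in rd10 than in GFP, beside 15.2% and 15% of all genes. The log2 fold changes of rd10 minus GFP were -2.32 for Lmf1, -1.79 for Narfl and -1.78 for Fam173a, all of which passed (adjusted p = 0.019, 0.0071 and 0.016). Without GFP 3 they were -2.81, -2.18 and -2.17, and Haghl (-1.29), Metrn (-0.77) and Rpusd1 (-0.74) passed too. Without rd10 1, rd10 2 or rd10 3, Lmf1 did not pass (adjusted p of 0.0719, 0.0557 and 0.0584 by edgeR), and Fam173a did not pass without rd10 1 or rd10 3 (0.0525 and 0.0618). Without the 4 libraries over 100 CPM of Cryaa none of the 3 passed (0.115 for Lmf1, 0.0768 for Narfl and 0.0764 for Fam173a). Against wild type rd10 differed by 0.04 for Lmf1 and -0.43 for Narfl, and neither passed. GFP against wild type without GFP 3 called 4 genes of the whole transcriptome, all of them here: Lmf1, Narfl, Haghl and Metrn, with log2 fold changes of 2.87, 1.76, 1.65 and 1.89. Rhot2 and Sox8, also in the segment, differed between rd10 and all 3 GFP libraries: Rhot2 had 355, 302 and 369 CPM in GFP and 116, 109 and 117 CPM in rd10, and Sox8 25.3, 28.9 and 21.9 CPM in GFP and 59.7, 49.6 and 51.9 CPM in rd10. Gng13 overlaps Chtf18 and Narfl overlaps Haghl in the files' positions. A count of GFP transcripts was not analysed here.

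**Figure D5:**
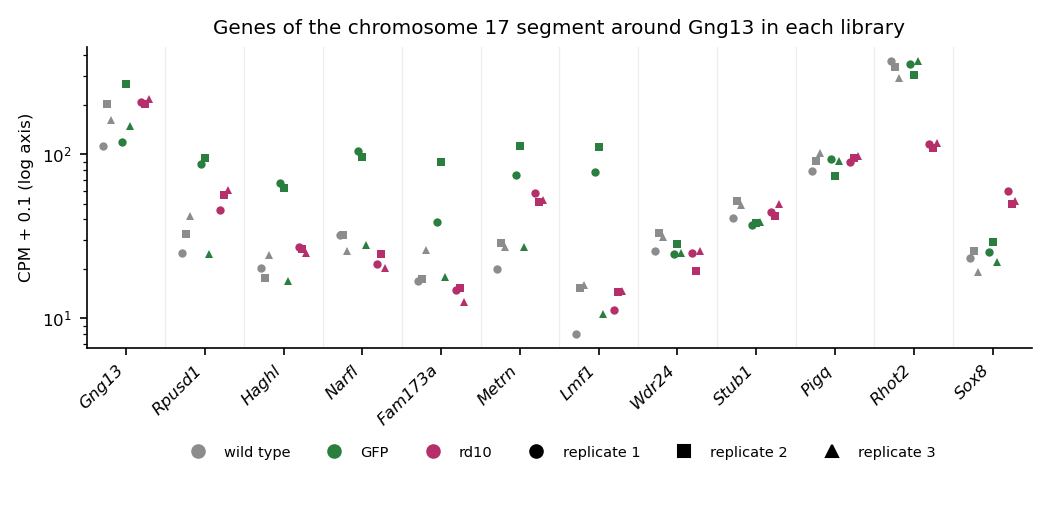
Level of 12 genes of the chromosome 17 segment around Gng13 in each of the 9 libraries, in CPM + 0.1 on a log axis; colours mark the groups and symbols the replicate numbers. GFP replicates 1 and 2 lie above GFP replicate 3 for Rpusd1, Haghl, Narfl, Fam173a, Metrn and Lmf1, and all 3 lie together for Wdr24, Stub1 and Pigq.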

How the data were processed

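Whole retina messenger RNA was sequenced in 9 libraries of 3 groups, and each deposited file holds raw read counts for 21769 genes, which the authors made with the mouse build mm9, per the submitters' processing notes. The aligner, the counting program, the annotation and the use of strand are not given in the sources used here. Totals were 9597635 to 12149448 counts, and 4230 genes had no count in any library.

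Groups were taken from the sample titles. Genes passing edgeR's filter (minimum count 10, minimum total 15) numbered 14300. They were scaled by TMM and fitted with edgeR 4.0.16 in R 4.3.3 (glmQLFit and glmQLFTest) over all 9 libraries with 1 mean per group, so that all groups shared the estimate of spread. P-values were adjusted by Benjamini-Hochberg over all 14300 genes at a threshold of 0.05, and SE is the log2 fold change divided by the square root of F. The procedure was tested on simulated data. Alternatives used DESeq2 1.42.0, other scalings and filters, covariates and left-out libraries. Correlations between same-numbered rd10 and GFP libraries of their deviations from the group means were -0.31, 0.24 and 0.36, so the numbers were not taken as pairs. P-values measure the spread between these libraries.

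The comparison and the 62 gene lists were chosen with earlier results of these data known, so counts by list are descriptions. Named genes were fixed rod, cone, bipolar, glial and lens genes, the 12 called genes furthest up and the 12 furthest down at a mean of 5 CPM or more without overlap, and, within each list, the 4 or fewer of lowest adjusted p. Named after their values were seen were C4a, Cd59a, Cdh5, Haghl, Ifit1, Irf7, Lmf1, Metrn, Pecam1, Pigq, Rpusd1, Stub1, Wdr24, the genes outside the lists in the closing section, and genes given only as too low to test. A few genes that these rules name are not reported here. Promoter letters are from RefSeq (GRCm38.p6), and no coordinate was moved between builds. Intervals and floors cover counting error only.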

Additional observations from a re-analysis of the deposited data

How the results depend on the processing

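In rd10 against GFP, library totals alone gave 4041 higher and 1055 lower genes, and leaving out the libraries over 100 CPM of Cryaa gave 876 and 970. In rd10 against wild type these settings gave 3604 and 1077, and 86 and 457. Leaving out 1 library at a time gave 1297 to 2266 higher and 1305 to 2138 lower genes against GFP, 1269 to 2891 higher and 1186 to 2530 lower genes against wild type, and 0 to 4 higher genes in GFP against wild type, where DESeq2 called 2 lower. In rd10 against wild type, leaving out the libraries over 100 CPM of Cryaa kept wild type 1 as the only wild type library. The counts of that setting therefore cannot separate lens RNA from the loss of libraries. Fewer libraries leave fewer degrees of freedom, and the cause of the other shifts was not tested. Cryaa turned to -2.48 with a lens covariate. That covariate is the summed level of the lens list, which holds Cryaa itself, so the value says nothing about Cryaa. With the replicate block, 1996 genes were higher and 1912 lower against GFP, of which 1895 and 1866 were called without it, and the numbers are only numbers. DESeq2 called 2634 higher and 2512 lower genes against GFP. The Xist covariate, chosen after seeing the data, gave 1656 and 1675, and leaving out GFP 2 and wild type 3, also chosen then, gave 2434 and 2312. At this depth genes with a few counts could not be tested.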

Other observations

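Genes on none of the lists changed as much as many on them. The following were chosen after their values were seen, from genes with a mean of at least 20 CPM whose call held in all 22 alternatives. Susd3 had 161, 192 and 169 CPM in GFP and 0.158, 2.74 and 3.47 CPM in rd10, 81.1-fold lower. Wisp1, a secreted matricellular protein gene, had 55.1, 62.1 and 49.2 CPM in GFP and 0.395, 2.74 and 1.18 CPM in rd10, 38.5-fold lower. Nt5e, the enzyme that makes adenosine outside cells, had 222, 163 and 228 CPM in GFP and 5.85, 5.15 and 6.49 CPM in rd10, 35-fold lower. The groups did not overlap for these 3 genes. Ppara, a nuclear receptor of fatty acid use, was 20.4-fold lower, Vtn, the gene of vitronectin, 19.5-fold, and Csda, a cold shock domain protein gene, 15.3-fold.

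On the higher side, Chi3l1, a secreted chitinase-like protein gene, had 24.9, 27.3 and 24.8 CPM in GFP and 84.7, 117 and 134 CPM in rd10, 4.36-fold higher. Vcam1, an adhesion receptor for leukocytes, had 12.7, 15.6 and 18.9 CPM in GFP and 48.2, 59.8 and 57 CPM in rd10, 3.5-fold higher. Both were without overlap. Fmod, a small matrix proteoglycan gene, was 4.32-fold higher, the sphingosine phosphate receptor gene S1pr3 4.01-fold, Lgals3bp 3.72-fold, Nbl1, a BMP antagonist gene, 3.68-fold, and Efemp1, a matrix protein gene, 3.12-fold.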
